A study of Mus musculus with 4 samples.

Results

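The B cell identity genes are 10 genes that mark the B lymphocyte lineage, namely Pax5, Ms4a1, Cd79a, Cd79b, Vpreb1, Vpreb3, Blnk, Cd22, Cd72 and Fcmr. They were chosen by gene symbol in the array annotation, and all 10 were among the 18193 genes measured. Each is given by its brightest probe set over the 4 arrays, and the remaining probe sets of a gene are given beside it. Affymetrix arrays measured their RNA in bone marrow cells sorted as negative for lineage markers and positive for cKit and Sca1 (LSK cells), the fraction that holds blood stem cells and multipotent progenitors. The WT group held 2 mice of genotype Ncstn flox/flox, and the Ncstn KO group held 2 littermates of genotype Ncstn flox/flox Mx1-cre+. Mx1-cre places the recombinase under an interferon-inducible promoter that is active in many cell types. All 4 mice therefore carried the floxed alleles, and all received 3 injections of polyIC, an interferon inducer, from 14 days of age at 20 µg per g of body weight. LSK cells were taken 4 weeks after injection, at 6 weeks of age. WT replicate 1 and Ncstn KO replicate 2 came from males, and WT replicate 2 and Ncstn KO replicate 1 from females. Because only the Ncstn KO mice carried cre, loss of Ncstn and presence of the transgene cannot be told apart.

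The product of Ncstn, nicastrin, belongs to the gamma-secretase complex that releases the active part of Notch receptors, and Notch signalling steers lymphoid progenitors towards the T rather than the B lineage. B cell development begins with EBF1 and PAX5, transcription factors that switch on the B cell programme. The early cell first builds a pre-B cell receptor, in which VPREB1 and the lambda 5 protein encoded by Igll1 stand in for a light chain, and CD79A and CD79B carry its signal to the adaptor BLNK. Later stages display surface proteins such as CD20, encoded by Ms4a1, and the inhibitory receptor CD22. LSK cells lie before B cell commitment, and lineage depletion is meant to remove mature B cells.

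Promoters are shown for the 4 members that differed most between the arrays of the Ncstn KO group, all in the same direction. They were thus chosen from these same data, and whether they share regulation was not tested. RefSeq sequences of build GRCm38.p6, from 250 bases before to 50 bases after the gene start, were matched for 8 of the 10 members. Capitals mark the octamer motif ATGCAAAT, bound by OCT factors, and the E box CAGNTG, bound by E proteins such as E2A, on either strand. The matches did not overlap. Vpreb1 lies at chr16:16869206-16869505 (minus strand), Vpreb3 at chr10:75948050-75948349 (plus strand), Cd79a at chr7:24897247-24897546 (plus strand) and Blnk at chr19:40994172-40994471 (minus strand).
Vpreb1: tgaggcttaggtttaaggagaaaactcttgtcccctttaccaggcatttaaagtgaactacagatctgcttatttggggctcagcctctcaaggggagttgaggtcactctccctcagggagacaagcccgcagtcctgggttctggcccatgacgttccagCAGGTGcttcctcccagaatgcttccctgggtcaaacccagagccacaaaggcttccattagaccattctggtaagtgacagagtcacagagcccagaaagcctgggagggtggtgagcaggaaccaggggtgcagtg
Vpreb3: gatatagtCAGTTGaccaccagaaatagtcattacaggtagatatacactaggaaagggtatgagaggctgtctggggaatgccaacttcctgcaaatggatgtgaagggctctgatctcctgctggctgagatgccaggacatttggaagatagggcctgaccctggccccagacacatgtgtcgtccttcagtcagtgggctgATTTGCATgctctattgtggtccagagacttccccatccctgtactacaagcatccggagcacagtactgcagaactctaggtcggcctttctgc
Cd79a: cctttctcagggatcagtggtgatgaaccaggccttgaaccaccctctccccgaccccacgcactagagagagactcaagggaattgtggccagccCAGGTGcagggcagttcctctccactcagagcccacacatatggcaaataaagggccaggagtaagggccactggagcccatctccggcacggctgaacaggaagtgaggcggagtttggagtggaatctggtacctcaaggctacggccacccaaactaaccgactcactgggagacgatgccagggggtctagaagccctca
Blnk: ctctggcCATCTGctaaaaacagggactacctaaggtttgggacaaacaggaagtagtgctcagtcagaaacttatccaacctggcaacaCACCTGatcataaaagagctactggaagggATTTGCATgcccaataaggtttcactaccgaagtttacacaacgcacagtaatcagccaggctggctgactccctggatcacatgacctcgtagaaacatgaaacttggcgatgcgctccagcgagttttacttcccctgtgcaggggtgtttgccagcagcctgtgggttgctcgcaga
The octamer was found as ATTTGCAT in Vpreb3, starting 45 bases before the gene start, and in Blnk, starting 130 bases before it. It occurred in 2 of the 8 members' windows and in 1.74% of 32851 promoter windows of the same length. An E box was found in 7 of the 8 windows, all but that of Pax5, and in 51.4% of all windows. The core of the motif bound by EBF1, searched as CCCNNGGG on both strands, was found in Cd22 alone, and in 13.7% of all windows. A match describes the letters in the window and is not evidence of binding.

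Intensities are given on a log2 scale, on which a difference of 1 is 2-fold. A change is the Ncstn KO mean minus the WT mean, n = 2 each, with its standard error (SE) from limma. Array medians were 71.6 to 79.2 in linear units, and the number of arrays limits the precision throughout. Ncstn itself was at 9.05 and 8.98 on WT replicates 1 and 2 and at 7.58 and 7.91 on Ncstn KO replicates 1 and 2. Its change was -1.27 (SE 0.22, limma adjusted p = 0.257) by the brightest probe set. As the mean of all Ncstn probe sets it was -0.80 (SE 0.29). At a limma adjusted p under 0.05, 0 of 18193 genes (0%) were called, while 1237 genes (6.80%) had an unadjusted p under 0.05. For 1 gene and groups of 2, the smallest p of a two-sided exact permutation test is 0.333. Of the LSK markers, 6 of 8 were measured, all 6 above the median level of all genes (8.04). So were 6 of 7 mature neutrophil and monocyte markers. Kit, the receptor used in the sort, had a change of -0.04 (SE 0.14). Slamf1, the LSK marker gene that encodes CD150, was brighter in Ncstn KO by 0.83 (SE 0.28), or by 0.43 when WT replicate 2 was left out. Of the 10 B cell identity genes, 3 (Cd79b, Cd72 and Vpreb1) passed a filter at that level and 7 did not.

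Among the B cell identity genes the B cell antigen gene Ms4a1 stood apart, 4.35-fold lower in Ncstn KO. Vpreb1, Vpreb3, Cd79a and Blnk differed more between the 2 Ncstn KO mice than between the genotypes. So did Cd79b and Cd72, whose group means were nearly level. The share of all genes that did so was not counted. No member passed the test, as no gene did, and 2 of 10 (Ms4a1 and Fcmr, both lower) had an unadjusted p under 0.05, against 1.84% of all genes in that direction. Both Ncstn KO arrays lay below both WT arrays for 3 members (Ms4a1, Blnk and Fcmr), and above them for 2 (Pax5 and Cd22). Over all genes, 12.8% lay apart downward and 21.3% upward, 34.0% in all. After scaling the arrays to their hybridization controls, bacterial and phage transcripts that were brighter in Ncstn KO by 0.195, 4 members lay apart downward (44.6% of all genes) and 0 upward (6.73%). The phage transcript among these controls is cre, which only the Ncstn KO mice carried as a transgene. The scaling may therefore depend on genotype, and the part of the transgene in it was not tested. The median change of the 10 members was 0.00 (0.0030) and their mean -0.25, beside a median of 0.02 and a mean of 0.05 over all genes. Under the scaling to the controls the medians were -0.19 and -0.17. Of the 10, 5 had a lower mean in Ncstn KO, against 44.2% of all genes. By array, the median deviation of the members from their WT means was -0.24 on Ncstn KO replicate 1 and 0.14 on Ncstn KO replicate 2. Because these are bulk samples, fewer cells of a type and less RNA per cell cannot be told apart.

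**Figure D1:**
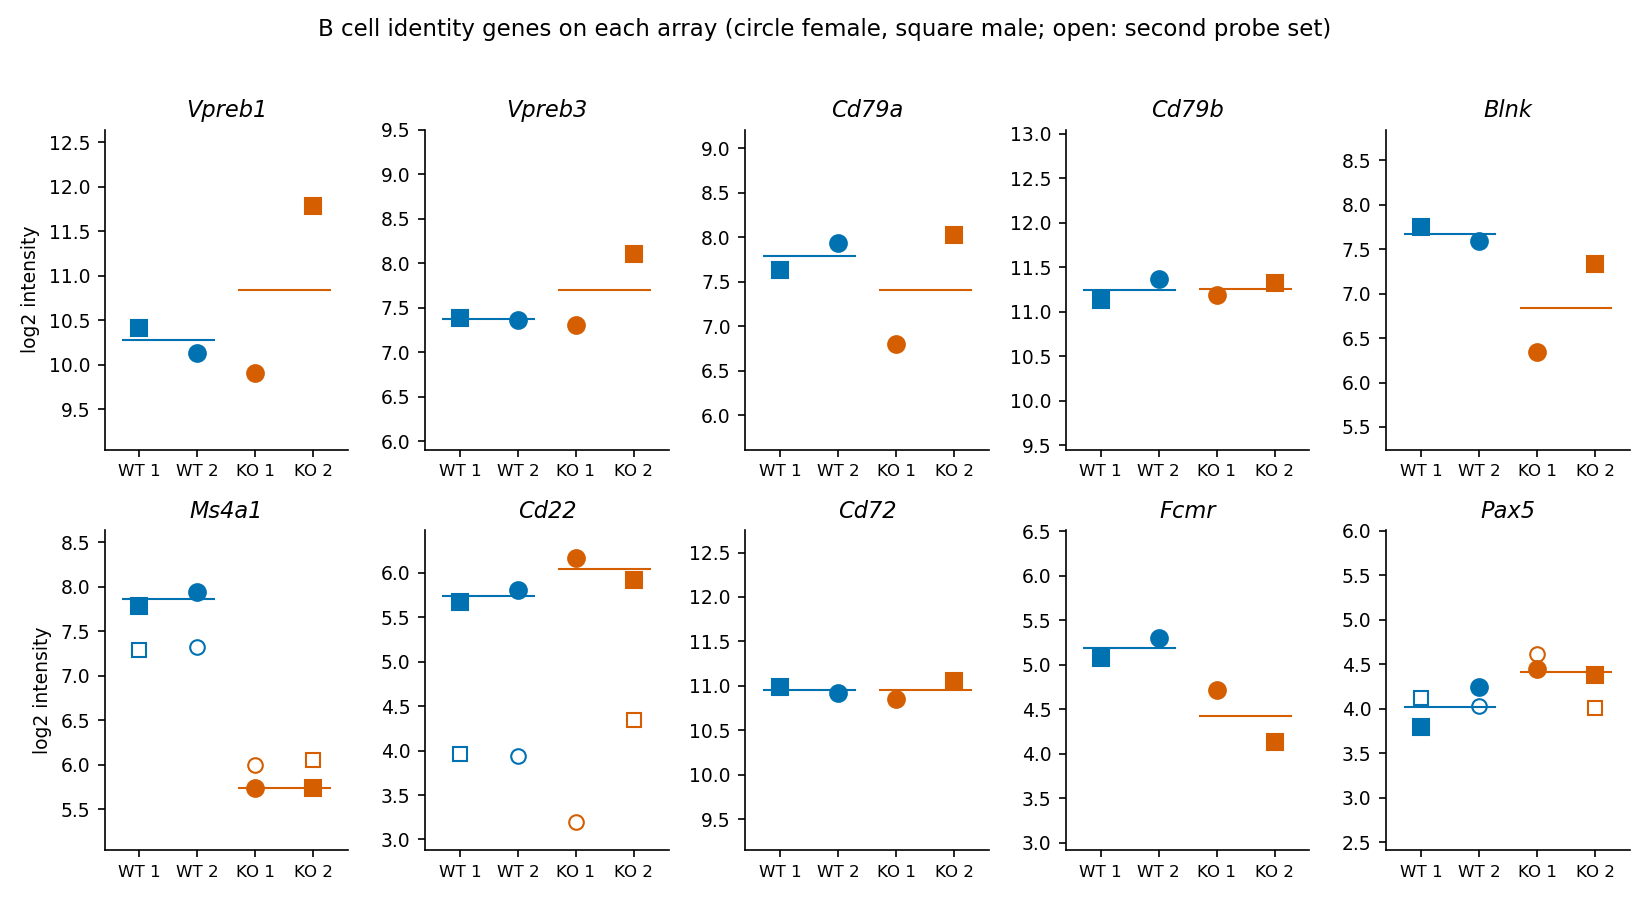
The log2 intensity of each B cell identity gene on each array, 1 panel per gene, with WT in blue and Ncstn KO (KO) in orange, circles for females and squares for males. Filled symbols are the brightest probe set, open symbols the other probe set where there is one, and lines the group means; every panel spans the same log2 range. Ms4a1 lay near 5.74 on both Ncstn KO arrays against 7.79 and 7.94 in WT, whereas Vpreb1 lay at 9.91 and 11.78 on the Ncstn KO arrays.

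The pre-B cell receptor includes the surrogate light chain and the CD79 pair. Vpreb1, which encodes the variable-like part of the surrogate light chain (probe set 1449869_at), was at 10.42 and 10.13 on WT replicates 1 and 2 and at 9.91 and 11.78 on Ncstn KO replicates 1 and 2. The Ncstn KO arrays thus lay on either side of WT. Ncstn KO replicate 2 was the brightest of the 4, and the change was 0.57 (SE 0.56, limma adjusted p = 0.963). Without Ncstn KO replicate 2 it was -0.37 and without Ncstn KO replicate 1 it was 1.51 (adjusted p = 0.0668). A dimmer probe set annotated to both Vpreb2 and Vpreb1 (1422416_s_at) showed the same order, at 7.81 and 7.80 in WT and 7.50 and 8.97 in Ncstn KO. Vpreb1 and Vpreb2 are closely related, so their signals may be shared.

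Vpreb3, which encodes a protein that binds newly made immunoglobulin chains inside the cell (1422921_at), was at 7.39 and 7.37 in WT and at 7.31 and 8.10 on Ncstn KO replicates 1 and 2. Again only Ncstn KO replicate 2 stood above the others, and the change of 0.33 (SE 0.32, adjusted p = 0.963 by limma) became -0.07 without it and 0.13 with arrays scaled to the hybridization controls. Cd79a (1418830_at) was at 7.64 and 7.94 in WT, at 6.80 on Ncstn KO replicate 1 and at 8.03 on Ncstn KO replicate 2. Here the array that departed was Ncstn KO replicate 1, which lay below the other 3. The change of Cd79a was -0.37 (SE 0.42, limma adjusted p = 0.973), and it was 0.24 without Ncstn KO replicate 1 and -0.99 without Ncstn KO replicate 2.

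Cd79b, the partner of Cd79a in the receptor (1417640_at), was at 11.13 and 11.37 in WT and at 11.18 and 11.33 in Ncstn KO. The groups overlapped, and the change was 0.01 (SE 0.13, limma adjusted p = 1), with a sign that turned under several settings. Blnk, the adaptor that links the receptor to its downstream enzymes (1451780_at), was at 7.75 and 7.59 in WT and at 6.34 and 7.33 in Ncstn KO. Both Ncstn KO arrays were lower than WT, Ncstn KO replicate 1 by more. Its change was -0.84 (SE 0.36, limma adjusted p = 0.776), and it was -0.34 without that array and -1.33 without the other Ncstn KO array.

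Ms4a1 encodes CD20, a membrane protein of B cells (1450912_at). It was at 7.79 and 7.94 on WT replicates 1 and 2 and at 5.74 on each of Ncstn KO replicates 1 and 2, which in linear units is 220.9 and 245.0 against 53.4 and 53.5. The groups were far apart and the arrays within each group lay close together. The group means were 7.86 ± 0.11 (SD, n = 2) in WT and 5.74 ± 0.0027 (SD, n = 2) in Ncstn KO, a change of -2.12 (SE 0.24). By unadjusted p Ms4a1 ranked 9 of 18193 genes and by change 11 from the lowest, but its limma adjusted p over all genes, 0.161, missed the threshold. It was 1 of the 94 genes (0.517%) at least 2-fold lower with separate arrays.

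The other Ms4a1 probe set (1423226_at) had the same order, at 7.29 and 7.33 in WT and 5.99 and 6.05 in Ncstn KO, with a change of -1.29 (SE 0.25). In a fit over 45037 probe sets, in which 0 passed (0%), the adjusted p by limma was 0.634 for the brighter and 0.751 for the dimmer probe set. The difference was -2.20 between the females and -2.05 between the males. Leaving out 1 array moved it between -2.20 and -2.05, with adjusted p from 0.0524 to 0.815. Centring each array on its median gave a change of -2.11 that passed (limma adjusted p = 0.0272, with 62 genes called in all). Signal over background was not assessed, so how much of the Ncstn KO intensity is Ms4a1 RNA is not known.

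The changes of the inhibitory receptor genes Cd72 and Cd22 were at most 0.30 in size. Cd72, an inhibitory coreceptor (1426112_a_at), was at 10.99 and 10.92 in WT and at 10.85 and 11.06 in Ncstn KO, and the Ncstn KO arrays enclosed both WT arrays. Its change was 0.00 in size (-0.00050, SE 0.13, limma adjusted p = 1), with a sign that turned under several settings. Cd22, another inhibitory coreceptor (1419768_at), was at 5.67 and 5.81 in WT and at 6.17 and 5.91 in Ncstn KO. Both Ncstn KO arrays were higher, by a mean of 0.30 (SE 0.25, limma adjusted p = 0.944). The change was 0.17 without Ncstn KO replicate 1, 0.11 with arrays scaled to the hybridization controls and 0.06 as the mean of both Cd22 probe sets. The dimmer Cd22 probe set (1419769_at) did not repeat this order, with 3.96 and 3.94 in WT lying between 3.19 and 4.35 in Ncstn KO.

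Fcmr, the gene of the Fc receptor for IgM (1429889_at), was at 5.08 and 5.30 in WT and at 4.72 and 4.13 in Ncstn KO. Both Ncstn KO arrays were lower, and unlike in Vpreb1, Cd79a and Blnk the lower one was Ncstn KO replicate 2. The change was -0.76 (SE 0.27, unadjusted p = 0.0309, limma adjusted p = 0.668), and -0.47 without Ncstn KO replicate 2. The linear intensities of Fcmr were 33.7 and 39.3 in WT and 26.3 and 17.6 in Ncstn KO, and with 16 added before log2 the change was -0.48. Pax5, the transcription factor that holds B cells to their lineage (1454401_at), was dim at 3.80 and 4.25 in WT and 4.44 and 4.38 in Ncstn KO. Its change was 0.39 (SE 0.22, limma adjusted p = 0.872), and 0.16 without WT replicate 1, 0.19 with arrays scaled to the hybridization controls and 0.21 with 16 added before log2. The other Pax5 probe set (1421765_at) read 4.12 and 4.03 in WT and 4.62 and 4.01 in Ncstn KO, so the 2 probe sets did not share an order. Linear intensities of Pax5 were 13.9 to 21.8 for the first and 16.1 to 24.6 for the second.

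**Figure D2:**
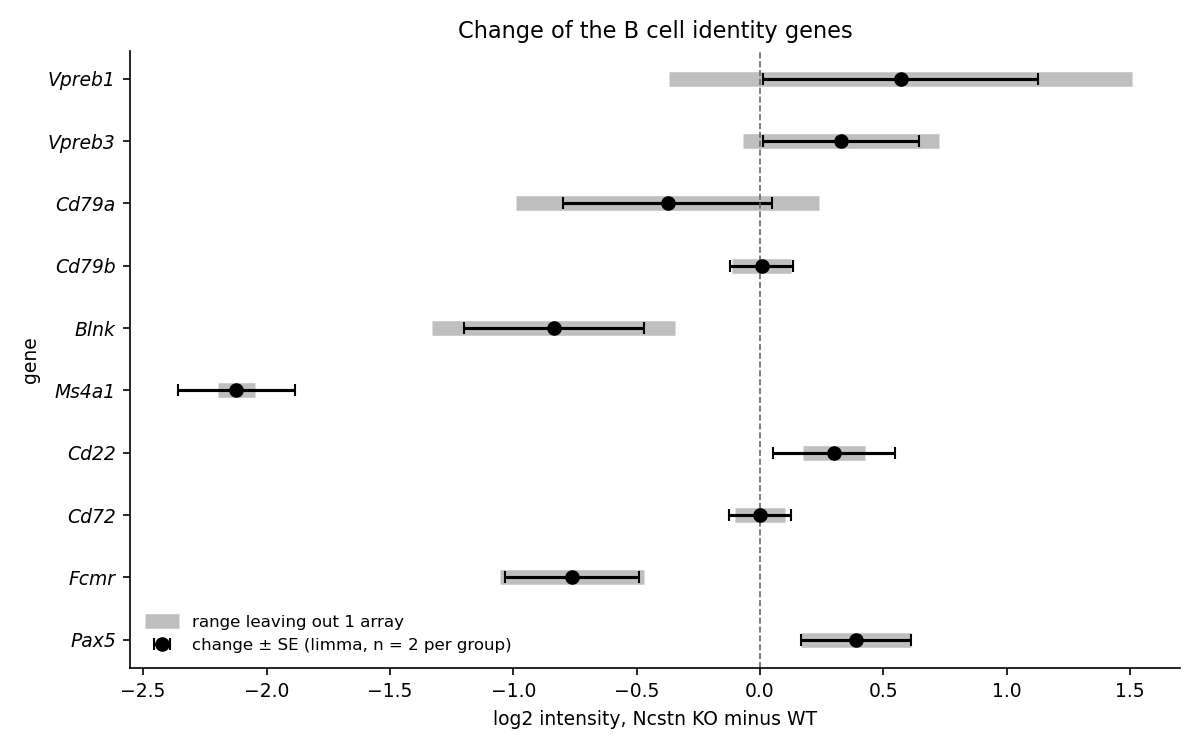
The change of each B cell identity gene as log2 intensity, Ncstn KO minus WT, with points and bars for the limma estimate and its SE (n = 2 per group) and grey bands for the range when each array was left out in turn. The band of Ms4a1 runs from -2.20 to -2.05, and that of Vpreb1 from -0.37 to 1.51 across the dashed line at 0.

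Several members differed between the 2 Ncstn KO mice. Ncstn KO replicate 2 minus replicate 1 was 1.88 for Vpreb1, 1.23 for Cd79a, 0.99 for Blnk and 0.79 for Vpreb3, all brighter on replicate 2. Fcmr went the other way by -0.58 and the brighter probe set of Cd22 by -0.25, whereas the dimmer Cd22 probe set was brighter on replicate 2 by 1.15 and the mean of both by 0.45. Ms4a1 differed by 0.0038. Of the 10 members, 7 were brighter on Ncstn KO replicate 2, against 36.7% of all genes, and 2 differed at least 2-fold, against 4.12% of all genes. With each array centred on its median the first count was 5 of 10, against 21.2% of all genes, and the signs of Vpreb1, Cd79a, Blnk and Vpreb3 held. Between the WT arrays 0 of 10 members differed 2-fold, against 1.15%, and the members' largest WT difference was 0.45 for Pax5. The median size of the difference over the members was 0.42 between the Ncstn KO and 0.19 between the WT arrays, beside 0.23 and 0.15 over all genes. The difference between genotypes had opposite signs in females and males for 5 of 10 members, against 44.3% of all genes. Only 1 array stands for each sex and genotype, so differences between mice and between sexes cannot be told apart.

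Ebf1 and Igll1, which act beside the members in early B cells, also differed between the Ncstn KO mice. Ebf1, the transcription factor gene named above, was at 9.02 and 8.60 in WT and at 6.60 and 8.72 on Ncstn KO replicates 1 and 2. Ncstn KO replicate 1 was thus the lowest array, while replicate 2 lay within the WT values, and the change was -1.15 (SE 0.65, limma adjusted p = 0.86, and -0.09 without Ncstn KO replicate 1). Igll1, partner of Vpreb1, was at 9.04 and 8.46 in WT and at 7.85 and 10.61 in Ncstn KO, an order like that of Vpreb1. The change of Igll1 was 0.48 (SE 0.82, limma adjusted p = 0.987) and became -0.89 without Ncstn KO replicate 2. As the mean of all probe sets of a gene, the change was 0.19 for Igll1 and -0.91 for Ebf1. Of 18 measured genes of the B lineage and B cell receptor list (20 listed), 0 passed in either direction. At an unadjusted p under 0.05, 1 was higher (4.96% of all genes) and 2 were lower (1.84% of all genes). The higher was Plcg2, a phospholipase downstream of Blnk (0.41, SE 0.11, and 0.21 with arrays scaled to the hybridization controls), and the lower were Spib, a transcription factor gene (-0.73, SE 0.26, and -0.45 without Ncstn KO replicate 1), and Bank1, a B cell scaffold gene (-0.91, SE 0.36, and -0.42 without Ncstn KO replicate 2). Bach2, a transcriptional repressor gene, had a change of 0.40 (SE 0.18, and 0.22 without Ncstn KO replicate 2). The median change of the list was 0.03 (-0.17 with arrays scaled to the controls), and 14 of 18 were brighter on Ncstn KO replicate 2 (median 0.35, and 12 of 18 after centring).

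**Figure D3:**
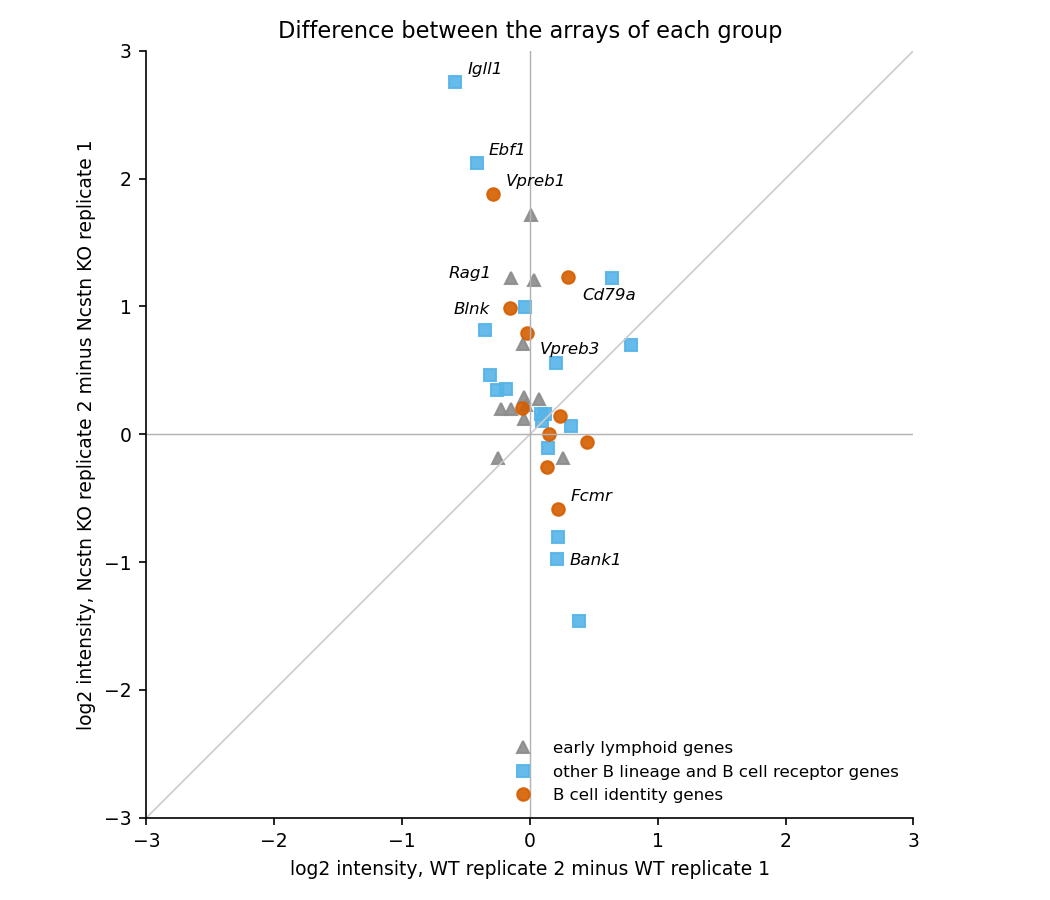
Each point is a gene, with the log2 difference between the WT arrays (replicate 2 minus replicate 1) on the horizontal and between the Ncstn KO arrays on the vertical axis, for the B cell identity genes, the other B lineage and B cell receptor genes and the early lymphoid genes; the diagonal marks equal differences. Igll1, Ebf1 and Vpreb1 reached 2.75, 2.12 and 1.88 between the Ncstn KO arrays but -0.58, -0.42 and -0.29 between the WT arrays.

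Among genes of the earlier lymphoid stage, both recombinase genes read lower on both Ncstn KO arrays, and neither passed. Rag2, a subunit of the recombinase that joins antigen receptor gene segments, was at 7.69 and 7.67 in WT and at 6.38 and 6.61 in Ncstn KO. Like Ms4a1 it was low on both Ncstn KO arrays, with a change of -1.18 (SE 0.24, limma adjusted p = 0.335). Rag1, the other subunit, was at 9.21 and 9.06 in WT and at 7.26 and 8.49 in Ncstn KO, lower on both and more so on replicate 1 (-1.26, SE 0.40, limma adjusted p = 0.608, and -0.64 without Ncstn KO replicate 1). Dntt, which encodes the enzyme that adds bases at the joints, had a change of -0.21 (SE 0.09, and -0.11 without Ncstn KO replicate 1), Il7r, the interleukin 7 receptor gene, of -0.28 (SE 0.25, and 0.08 without Ncstn KO replicate 1), and Flt3, a receptor gene of lymphoid-primed progenitors, of 0.13 (SE 0.11, and -0.07 with arrays scaled to the hybridization controls). Of 12 measured early lymphoid genes 0 passed. The Ncstn KO mean was below the WT mean for 4 of them (44.2% of all genes) and above it for 8. Both Ncstn KO arrays lay below both WT arrays for 3 (12.8% of all genes) and above them for 0 (21.3%). The median change was 0.05 (-0.15 with arrays scaled to the controls). The median difference between the Ncstn KO arrays was 0.25, with 10 of 12 brighter on replicate 2 (9 of 12 after centring).

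**Figure D4:**
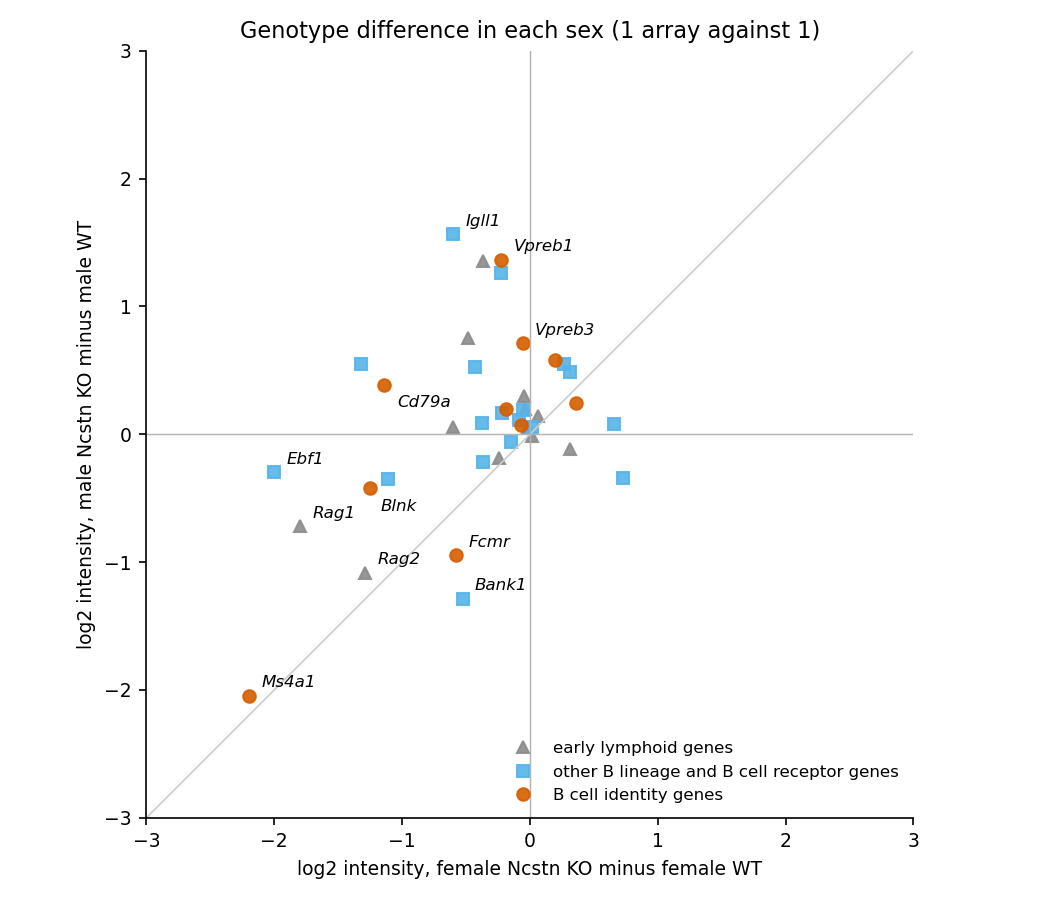
Each point is a gene, with the log2 difference Ncstn KO minus WT between the 2 females on the horizontal and between the 2 males on the vertical axis, 1 array against 1; the diagonal marks equal differences. Ms4a1 lay near the diagonal at -2.20 and -2.05, whereas Vpreb1 was at -0.23 and 1.36 and Cd79a at -1.14 and 0.39.

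Markers of other cells were read on the same arrays, and no marker passed the test in any of these lists. Their summed linear intensity on WT replicates 1 and 2 and Ncstn KO replicates 1 and 2 was 251, 352, 221 and 200 for 5 T cell markers. It was 9740, 8117, 6050 and 8666 for 6 plasma cell markers and 505, 571, 684 and 614 for 4 plasmacytoid dendritic cell markers. The B cell identity genes themselves summed to 6538, 6671, 5657 and 9073, of which Vpreb1 alone gave 1368.1, 1122.5, 959.9 and 3523.8. Without Vpreb1 their sums were 5170, 5548, 4697 and 5549. Among the T cell markers 4 of 5 had a lower mean in Ncstn KO, against 44.2% of all genes. Both Ncstn KO arrays lay below both WT arrays for 3 of 5, against 12.8%. The largest change was that of the costimulatory receptor gene Cd28 (-1.42, SE 0.50, and -0.65 without Ncstn KO replicate 1). The plasma cell markers were split, with the Ncstn KO mean below the WT mean for 3 of 6 and above it for 3, and a median change of 0.07. Of these, Sdc1 had a change of -1.48 (SE 0.38, limma adjusted p = 0.479). It was -2.12 without Ncstn KO replicate 2 and -0.85 without Ncstn KO replicate 1.

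In other lists, Alas2, which encodes the first enzyme of heme synthesis in erythroid cells, had a change of -1.30 (SE 0.36, and -0.85 without Ncstn KO replicate 1). Itgam, an integrin gene of myeloid cells, was brighter in Ncstn KO by 1.07 (SE 0.36), or by 0.59 when WT replicate 1 was left out. It was dim, at 4.05 and 5.02 in WT and 5.45 and 5.77 in Ncstn KO, and its change was 0.71 with 16 added before log2. The median change of the 7 mature neutrophil and monocyte markers, of which Itgam is 1, was 0.11. Pacsin1, listed with the plasmacytoid dendritic cell markers, was brighter by 0.72 (SE 0.25), or by 0.54 with 16 added before log2.

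The other lists were also compared between the Ncstn KO arrays. All 7 mature neutrophil and monocyte markers were brighter on Ncstn KO replicate 2 (median 0.32), summing to 54919, 45104, 46259 and 61490 in the same array order. With each array centred on its median 6 of the 7 were, and the median size of their difference was larger between the WT arrays (0.43) than between the Ncstn KO arrays (0.32). Of the 3 erythroid markers 2 were brighter on replicate 2, while Klf1, an erythroid transcription factor gene named after its values were seen, was dimmer by -1.65 (9.44 and 7.79), and their sum was 1437, 978, 971 and 760. Of the 6 plasma cell markers 5 were brighter on replicate 2 (median 0.62, and 4 of 6 after centring). Of the 5 T cell markers 4 were dimmer there (median -0.41), while Cd28 was brighter by 1.56, and the median over all genes was -0.10. The part of any of these cells in the values of Ms4a1, Vpreb1 or Cd79a was not tested. RMA intensities do not reach 0, so absence of a marker cannot be read from them.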

How the data were processed

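RNA from LSK cells of 4 mice, 2 per genotype, was amplified from 5 ng and hybridized to Affymetrix arrays, per the labels' protocols. The authors deposited 1 linear-scale intensity per probe set, from RMA per the submitters' processing notes, with software and background model not given in the sources used here. Log2 was taken with no further scaling. Of 45101 probe sets, 64 controls were left out of the tests. The platform annotation of 2016 named 1 gene for 34945, several for 932 and none for 9160, and 34741 of those naming 1 gene were found in the RefSeq table by Entrez identifier. The brightest probe set on average stood for each of 18193 genes.

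Groups came from the sample titles. Sexes differ within each group, so the arrays of a group did not come from the same mouse, and each array was taken as a single mouse. Genotype was tested with limma 3.58.1 in R 4.3.3 (variance trend, two-sided, Benjamini-Hochberg over all genes, 0.05; 2 residual and 4.11 prior degrees of freedom), and the script was tested on simulated data. Members and lists were chosen with earlier results of these data known. Named genes were the members, Ncstn, Kit and genes of the same developmental path fixed by name. To these were added the 4 of smallest unadjusted p from each of the B lineage and receptor and the early lymphoid lists. From each further list only the gene of smallest unadjusted p was added. Those lists were plasma cell, T cell, plasmacytoid dendritic cell, neutrophil and monocyte, erythroid and LSK genes. Listed genes without a value are not analysed here. Figures were drawn with matplotlib 3.10.9.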

Additional observations from a re-analysis of the deposited data

Results flagged for a closer look

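In 9 of 29 named genes, 5 of them B cell identity genes, the Ncstn KO minus WT difference had opposite signs in females and males, as it had for 44.3% of all genes. Each pair is 1 array against 1, so the difference between the pairs was not tested. Among the members, the male minus the female difference was 1.59 for Vpreb1 (-0.226 in females, 1.36 in males), 1.53 for Cd79a (-1.14 and 0.389), 0.771 for Vpreb3 (-0.057 and 0.714), 0.384 for Cd79b (-0.186 and 0.199) and 0.142 for Cd72 (-0.071 and 0.070). Among the other genes it was 2.17 for Igll1, 0.658 for Il7r, 0.345 for Flt3 and -0.345 for Kit.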

How the results depend on the processing

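Over the 10 members and the alternative settings, 112 of 123 changes kept their direction and stayed on the same side of the threshold. Another 10 turned in sign and 1 passed, that of Ms4a1 after centring each array on its median (-2.11, limma adjusted p = 0.0272). The 123 include settings that cannot alter a change here, so its direction was fixed. These are the sex term, the replicate block, the fit without a variance trend and the restriction to genes above the median level. The mean of all probe sets is another, for members with no other probe set of their own. Over its alternatives Ms4a1 ran from -2.32 to -1.71. Without 1 array, the sign turned over the ranges -0.99 to 0.24 (Cd79a), -0.11 to 0.13 (Cd79b), -0.37 to 1.51 (Vpreb1), -0.068 to 0.72 (Vpreb3), -0.10 to 0.10 (Cd72), -0.89 to 1.86 (Igll1), -0.63 to 0.079 (Il7r), -0.0094 to 0.27 (Flt3) and -0.23 to 0.14 (Kit). It also did so for the other probe sets of Cd22 (-0.76 to 0.40) and Pax5 (-0.061 to 0.55) and the one shared by Vpreb2 and Vpreb1 (-0.31 to 1.16). Ncstn KO replicate 1 or 2 was the array whose omission turned Cd79a, Vpreb1, Vpreb3, Igll1, Il7r, Flt3 and these probe sets. Scaling to the hybridization controls turned Cd79b (-0.19) and Flt3 (-0.066), quantile normalization Cd79b (-0.0015) and median centring Cd72 (0.0099). The median change of the members was -0.24 without Ncstn KO replicate 2, 0.14 without Ncstn KO replicate 1 and -0.19 after scaling to the hybridization controls. Genes called over the whole table numbered 3 after quantile normalization, 62 after median centring, 2 among genes above the median level, and 0 to 27 without 1 array, 23 of them without Ncstn KO replicate 1 and 27 without Ncstn KO replicate 2. Sdc1 was the 1 gene called among the other lists, without Ncstn KO replicate 2. Genes at an unadjusted p under 0.05 numbered 543 to 2450 without 1 array, 652 among genes above the median level and 2840 after scaling to the hybridization controls, where the median over all genes was -0.17 and 346 were higher and 2494 lower (902 and 335 as deposited). Genes changed 2-fold with separate arrays (311 as deposited) numbered 190 with 16 added before log2, 80 among genes above the median level, and up to 566 without 1 array. With the replicate number as a block (replicate block), 0 genes passed and the change of Ms4a1 was -2.12 (limma adjusted p = 0.429); deviations of same-numbered arrays correlated at -0.242 across genes, and the crossed pairing, which is that by sex, called 0 genes. The causes of these shifts were not tested. Without 1 array, a genotype is a single mouse of 1 sex, assumed to vary like the other group.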
